A study of Arabidopsis thaliana with 10 samples.

Results

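Sugar starvation and darkness switch on many plant genes, and 9 of them were followed here by their gene identifiers in seedlings bleached with norflurazon. They are ASN1 (AT3G47340), BCAT2 (AT1G10070), DIN4 (AT3G13450), SEN1 (AT4G35770), BGLU30 (AT3G60140, also DIN2), DIN10 (AT5G20250), TPS8 (AT1G70290), TPS10 (AT1G60140) and TPS11 (AT2G18700). All 9 are among the 33602 genes counted and among the 20628 with enough reads to test. In wild type all 9 were higher on norflurazon, by 2.08-fold for TPS11 to 27.5-fold for BCAT2. On the same herbicide ASN1 stood a further 4.71-fold and 4-fold above wild type in the 2 MORF2 overexpression lines. In gun1-9 the genes parted, with TPS11 and ASN1 higher and SEN1 and BCAT2 lower. Each of these lower calls was lost when certain single libraries were left out. Of all tested genes 20.9% were called lower in gun1-9.

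A leaf that cannot fix carbon lives on its reserves. The kinase SnRK1 becomes active when sugar is short and favours breakdown over growth, while trehalose 6-phosphate, a signal of sucrose supply, restrains it. The DIN genes were named as dark-inducible, and feeding sucrose lowers many of their transcripts. Dark or starved leaves store nitrogen released from protein as asparagine, made by ASN1, and burn branched-chain amino acids through BCAT2 and the keto acid dehydrogenase that holds the DIN4 subunit. Norflurazon blocks phytoene desaturase in carotenoid synthesis, so that seedlings in light bleach and cannot photosynthesise.

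RNA from whole Arabidopsis seedlings 5 days old was sequenced in 10 libraries, 2 for each of 5 groups, all in the Col6-3 background. Wild type was grown without treatment and on 5 µM norflurazon. The gun1-9 mutant and the overexpression lines MORF2OX and MORF2OX(w) are present on 5 µM norflurazon only, so a line's effect without the herbicide cannot be told apart from its effect with it. Continuous light of 100 µmol per square metre and second, 22 °C and LS medium were common to all groups, and each library pooled more than 100 plants of a genotype. GUN1 acts in plastids and relays their state to the nucleus, and MORF2 takes part in editing plastid RNA. Per the labels the overexpressors have phenotypes of unequal strength. The labels do not give the promoter behind MORF2, the lesion of gun1-9, the number of independent transgenic lines or any sugar in the medium.

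Levels are CPM, counts scaled to library size with TMM factors, given as each library or as mean ± SD with n = 2. MORF2 lay between 95.2 ± 6.21 and 120 ± 3.90 CPM in the groups without the transgene, at 7608 ± 510 in MORF2OX and at 4721 ± 412 in MORF2OX(w). GUN1 was at 238 ± 65.4 CPM in treated wild type, against 151 ± 5.05 in gun1-9, which checks that label only in part. Its level also differed between groups without the mutation, at 496 ± 58.6 CPM untreated, 443 ± 37.5 in MORF2OX and 350 ± 19.1 in MORF2OX(w). Total counts ran from 19018594 to 25220815. Treated wild type had the most unequal replicates: the chi-square statistic between them, divided by its degrees of freedom, was 36.05, and 5.216 to 10.08 in the other groups. Nothing says that replicates were grown apart, so p-values measure the spread between these libraries, which may be technical. In whole seedlings fewer cells of a type and less RNA per cell cannot be told apart. The guard cell, vascular and root markers all had counts in every library. A gene is called here when its adjusted p in edgeR's quasi-likelihood test, corrected over all 20628 tested genes, is under 0.05.

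**Figure D1:**
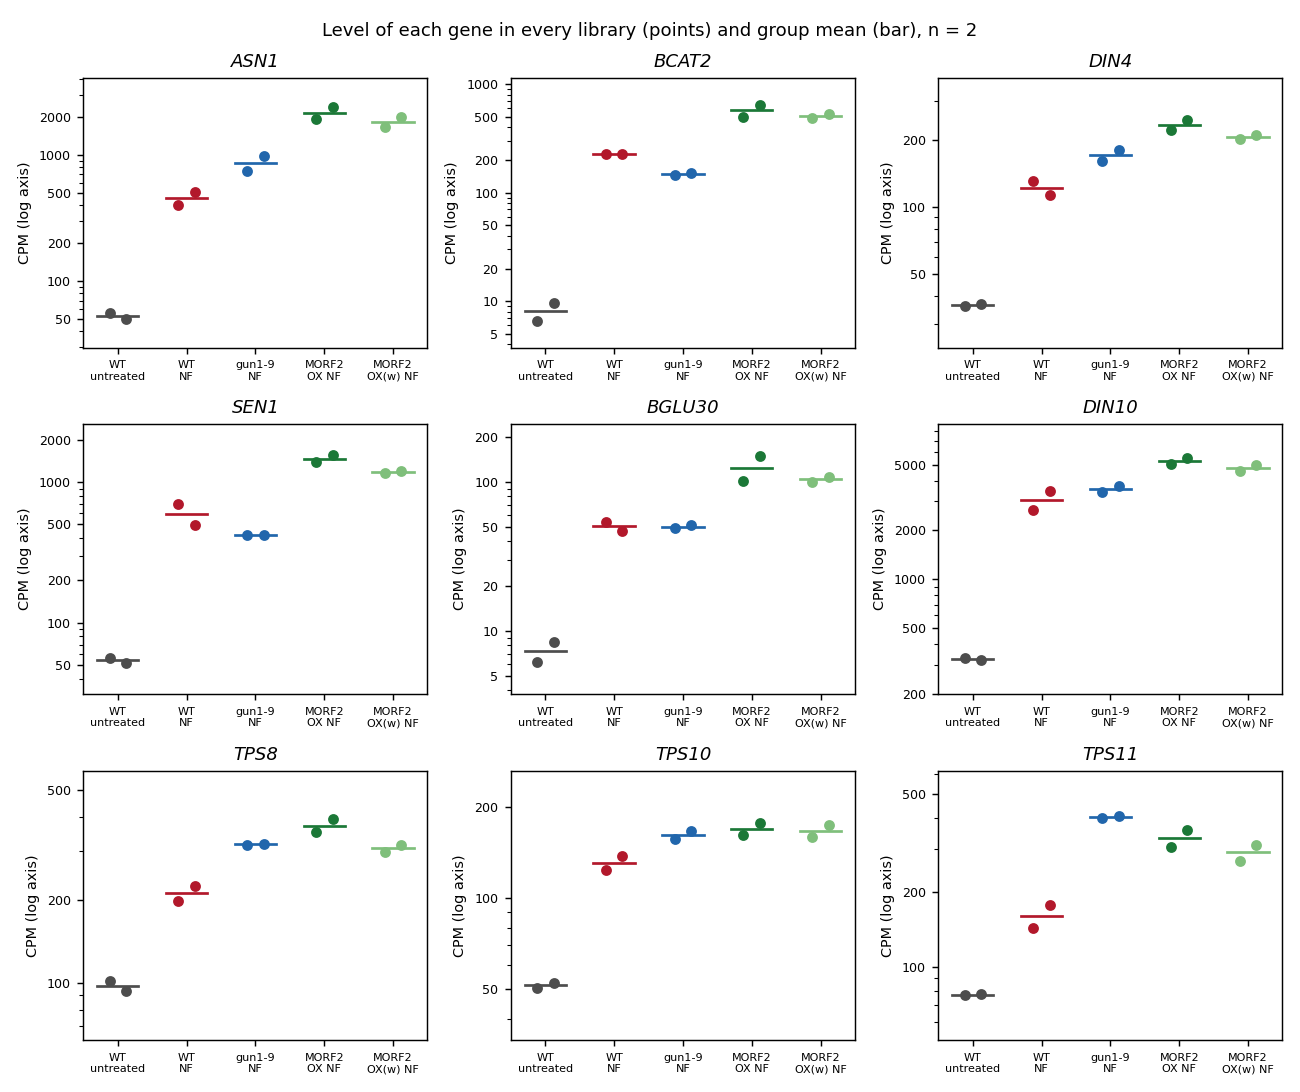
Level of each of the 9 genes (CPM, log axis) in every library of the 5 groups; points are libraries and bars are group means, n = 2. Every gene is lowest in untreated wild type, and ASN1, SEN1, BGLU30 and BCAT2 reach their highest levels in the libraries of MORF2OX and MORF2OX(w), while TPS11 is highest in gun1-9.

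The upstream DNA of 4 genes is shown because they mark the extremes of the line comparisons. TPS11 and ASN1 had the largest rises in gun1-9, and SEN1 and BCAT2 were the members called lower there. Each run is the 300 bases before the annotated gene start, read 5′ to 3′ on the gene's strand from the TAIR10.1 RefSeq assembly. Capitals mark matches, on either strand, to 7 short motifs linked to sugar, dark or bZIP regulation: the G-box CACGTG, the C-box GACGTC, the hybrid box CACGTC, the ACTCAT element, the TATCCA element, the sugar-repressive element TTATCC and the I-box GATAAG. The windows are chr3:17441432-17441731 on the minus strand for ASN1, chr2:8108598-8108897 on the plus strand for TPS11, chr4:16944578-16944877 on the plus strand for SEN1 and chr1:3287787-3288086 on the plus strand for BCAT2.
ASN1: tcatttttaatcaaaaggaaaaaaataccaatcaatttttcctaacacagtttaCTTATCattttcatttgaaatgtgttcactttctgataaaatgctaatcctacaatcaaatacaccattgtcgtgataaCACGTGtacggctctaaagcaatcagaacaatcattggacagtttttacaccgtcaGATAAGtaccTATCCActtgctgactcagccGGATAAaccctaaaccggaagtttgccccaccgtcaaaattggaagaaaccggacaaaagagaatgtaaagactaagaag
TPS11: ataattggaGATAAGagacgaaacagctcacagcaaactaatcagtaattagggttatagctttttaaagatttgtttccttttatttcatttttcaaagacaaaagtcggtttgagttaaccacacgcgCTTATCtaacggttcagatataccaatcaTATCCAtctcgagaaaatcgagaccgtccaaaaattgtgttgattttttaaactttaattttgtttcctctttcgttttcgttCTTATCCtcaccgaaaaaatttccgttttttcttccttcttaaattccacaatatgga
SEN1: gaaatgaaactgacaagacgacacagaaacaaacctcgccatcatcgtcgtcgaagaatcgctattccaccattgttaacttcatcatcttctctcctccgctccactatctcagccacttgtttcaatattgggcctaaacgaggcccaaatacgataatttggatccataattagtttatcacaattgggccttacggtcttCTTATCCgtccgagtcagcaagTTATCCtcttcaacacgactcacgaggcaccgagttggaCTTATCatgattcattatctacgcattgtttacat
BCAT2: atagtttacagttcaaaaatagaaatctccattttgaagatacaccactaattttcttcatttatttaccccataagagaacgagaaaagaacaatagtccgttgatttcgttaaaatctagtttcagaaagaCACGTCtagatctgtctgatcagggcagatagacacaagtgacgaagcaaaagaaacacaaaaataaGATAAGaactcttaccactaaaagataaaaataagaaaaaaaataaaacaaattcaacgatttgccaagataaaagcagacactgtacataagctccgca
The G-box stood upstream of ASN1 alone among the 9 genes, with its first base 167 bases before the gene start, and 7.09% of the 27443 windows of this length in the genome hold one. CACGTC stood upstream of BCAT2, DIN4 and DIN10, and 6.58% of windows hold it. TTATCC stood upstream of ASN1, SEN1 and TPS11 (14.7% of windows) and TATCCA upstream of ASN1, TPS10 and TPS11 (16.2%). GATAAG was present in 6 of the 9 windows, those of ASN1, SEN1, BCAT2, DIN4, TPS8 and TPS11, and in 14.5% of windows. On opposite strands TTATCC and GATAAG can share bases, as in the SEN1 and TPS11 windows, so their counts are not separate. GACGTC and ACTCAT stood in none of the 9 windows and in 2.61% and 14.8% of all. These matches describe letters in a window and show no binding.

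ASN1, the glutamine-dependent asparagine synthetase, is a gene of 2746 exon bases at chr3:17437840-17441431 on the minus strand. The untreated libraries held 56.1 and 50.6 CPM of it and those of wild type on norflurazon 404.5 and 508.4 CPM. It was 741.8 and 978 CPM in gun1-9, 1906 and 2393 in MORF2OX, with 1666 and 1988 in MORF2OX(w). Untreated, wild type, gun1-9 and overexpressor libraries thus formed successive steps that did not overlap, while the overexpression lines overlapped each other. On norflurazon wild type ASN1 rose 8.55-fold (log2 fold change 3.10, SE 0.19, edgeR adjusted p = 5.59e-08). Against wild type on norflurazon further increases were found in gun1-9 (0.91, SE 0.18, edgeR adjusted p = 0.00136), in MORF2OX (2.24, SE 0.18, adjusted p = 6.53e-06) and in MORF2OX(w) (2.00, SE 0.18, adjusted p = 0.000119). In MORF2OX its fold of 4.71 ranked 160 from the highest of all tested genes.

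BCAT2, an aminotransferase that converts branched-chain amino acids to their keto acids, lies at chr1:3288087-3290471 on the plus strand. It was nearly silent in untreated seedlings, at 6.59 and 9.70 CPM, and reached 225.7 and 225.6 CPM in wild type on norflurazon. The gun1-9 libraries held 146.1 and 150 CPM, those of MORF2OX 501.6 and 645.8, and those of MORF2OX(w) 488.4 and 526.8. All gun1-9 libraries lay under all wild type libraries on norflurazon, and all overexpressor libraries lay above them. With a log2 fold change of 4.78 (SE 0.19, edgeR adjusted p = 2e-09) on norflurazon, BCAT2 ranked 141 from the highest of 20628 genes. It was lower in gun1-9 than in wild type (-0.61, SE 0.16, edgeR adjusted p = 0.0083) but higher in MORF2OX (1.35, SE 0.16, adjusted p = 9.05e-05) and MORF2OX(w) (1.17, SE 0.16, adjusted p = 0.000978). A gene on the opposite strand covers 9.19% of its exon bases, and the strand setting of the counting is not given in the sources used here.

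DIN4 encodes the E1 beta subunit of the mitochondrial branched-chain keto acid dehydrogenase and lies at chr3:4382198-4384436 on the minus strand. Its libraries held 36.1 and 36.8 CPM untreated, 130.6 and 113.8 in treated wild type, and 161.4 and 180.6 in gun1-9. The values were 220.5 and 246.1 CPM in MORF2OX and 202.9 and 209.6 in MORF2OX(w), so that no library of one group overlapped those of another. The rise on norflurazon was 3.35-fold (log2 fold change 1.75, SE 0.12, edgeR adjusted p = 1.62e-07). Each line was higher than wild type on norflurazon, with log2 fold changes of 0.49 in gun1-9, 0.93 in MORF2OX and 0.76 in MORF2OX(w) (edgeR adjusted p = 0.00569, 0.000151 and 0.00225).

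SEN1 is a senescence- and dark-associated gene whose product carries a rhodanese-like domain, at chr4:16944878-16946266 on the plus strand. Untreated libraries held 56.1 and 51.8 CPM, against 700.1 and 491.6 in wild type on norflurazon, a rise of 11-fold (log2 fold change 3.47, SE 0.17, edgeR adjusted p = 9.32e-09). The gun1-9 libraries held 420.6 and 418.1 CPM, those of MORF2OX 1381 and 1554, and those of MORF2OX(w) 1160 and 1205. The wild type libraries on norflurazon were far apart, both above gun1-9 and both below the overexpressors. SEN1 was lower in gun1-9 (-0.51, SE 0.16, edgeR adjusted p = 0.0199) but higher in MORF2OX (1.30, SE 0.16, adjusted p = 0.000106) and MORF2OX(w) (0.99, SE 0.16, adjusted p = 0.00234).

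BGLU30, a beta-glucosidase of glycoside hydrolase family 1, lies at chr3:22216540-22220824 on the plus strand. Levels were 6.19 and 8.47 CPM untreated, 54.1 and 46.7 in treated wild type and 49.0 and 51.2 in gun1-9. In MORF2OX they were 100.6 and 148.4 CPM, and in MORF2OX(w) 99.7 and 108.2. The gun1-9 libraries fell between the wild type libraries, and each overexpressor library stood above both groups. BGLU30 rose 6.83-fold on norflurazon (log2 fold change 2.77, SE 0.20, edgeR adjusted p = 2.19e-07). It was higher than in treated wild type in MORF2OX (1.31, adjusted p = 0.000225) and MORF2OX(w) (1.05, adjusted p = 0.00323) but not called in gun1-9 (-0.01, adjusted p = 0.978). Its near relatives could not be compared with it, since BGLU28 had 23 counts in all 10 libraries together, BGLU29 and BGLU32 had 5 each, and BGLU31 was listed at 0.

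DIN10 belongs to the raffinose synthase family and lies at chr5:6833564-6836862 on the plus strand. The untreated libraries held 329.4 and 321.1 CPM and those of treated wild type 2631 and 3472 CPM. The gun1-9 libraries held 3407 and 3715 CPM, those of MORF2OX 5052 and 5488, and those of MORF2OX(w) 4572 and 4966. Wild type and gun1-9 overlapped on norflurazon, and the overexpressors stood above both. DIN10 rose 9.38-fold on norflurazon (log2 fold change 3.23, SE 0.16, edgeR adjusted p = 9.14e-09). It was higher than in treated wild type in MORF2OX (0.79, adjusted p = 0.00196) and MORF2OX(w) (0.64, adjusted p = 0.0158). In gun1-9 the log2 fold change of 0.22 (SE 0.15) was not called (edgeR adjusted p = 0.242).

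TPS8, TPS10 and TPS11 encode class II trehalose phosphate synthase proteins, relatives of TPS1 that carry synthase-like and phosphatase-like domains and are widely used as markers of sugar status. TPS11 (chr2:8108898-8112010, plus strand) held 77.1 and 77.6 CPM untreated, 143.5 and 178.2 in treated wild type, 398.5 and 407.8 in gun1-9, 305.5 and 356.5 in MORF2OX, with 269 and 311.4 in MORF2OX(w). Here gun1-9 stood above every other library. The rise on norflurazon was 2.08-fold (log2 fold change 1.06, SE 0.14, edgeR adjusted p = 3.12e-05). The further difference from wild type was 1.33 in gun1-9 (SE 0.14, adjusted p = 1.04e-05), 1.04 in MORF2OX (adjusted p = 0.000193) and 0.85 in MORF2OX(w) (adjusted p = 0.00255).

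TPS8 (chr1:26470795-26474833, minus strand) held 101.5 and 93.1 CPM untreated, 198.6 and 224.8 in treated wild type, 316.7 and 319.9 in gun1-9, 353.1 and 392.4 in MORF2OX, with 299.7 and 316.6 in MORF2OX(w). All lines lay above wild type, and MORF2OX(w) lay just below gun1-9. The log2 fold changes were 1.12 on norflurazon, and against treated wild type 0.59 in gun1-9, 0.82 in MORF2OX and 0.54 in MORF2OX(w) (edgeR adjusted p = 5.01e-06, 0.00161, 0.000348 and 0.0118). TPS10 (chr1:22176934-22181740, minus strand) had the narrowest range among the lines. Its means were 51.6 ± 1.29 CPM untreated, 131 ± 9.87 in treated wild type, 162 ± 7.50 in gun1-9, 169.5 ± 11 in MORF2OX and 167 ± 10.8 in MORF2OX(w). It rose 2.53-fold on norflurazon (log2 fold change 1.34, edgeR adjusted p = 9.17e-07), but was near the threshold in each line, with 0.31 in gun1-9 (adjusted p = 0.0426), 0.38 in MORF2OX (adjusted p = 0.0244) and 0.35 in MORF2OX(w) (adjusted p = 0.0611, not called).

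On norflurazon all 9 genes were thus called higher in wild type (9 of 9), where 30.5% of all tested genes were. Their median log2 fold change was 2.77, against -0.03 over all genes tested. Together they took 0.052% and 0.0559% of the counts of the untreated libraries, and 0.579% and 0.686% of those of wild type on norflurazon. In the same comparison 4 of 8 root markers were called higher and 1 lower (median 0.90). Of these CASP1 went from 1.64 to 10.98 CPM and SCR from 73.7 to 40.9 CPM. All 4 guard cell markers and 3 of 4 vascular markers were lower, as were 3 of 7 tested seed storage genes. Of all tested genes 34.5% were lower. Summed guard cell markers were 93.7 and 87.6 CPM untreated and 35.2 to 55.8 CPM in the 8 treated libraries, and vascular markers 356.6 and 285.5 against 97.8 to 164.2 CPM. Seed storage transcripts were at 1.38 and 167.1 CPM in the untreated libraries and at most 25.4 CPM in the others. The part of these differences in the rise of the 9 genes was not tested.

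In gun1-9 the question was whether the 9 genes differ from wild type when both are on norflurazon. Compared with wild type on norflurazon, 5 of the 9 genes were higher (ASN1, DIN4, TPS8, TPS10, TPS11) and 2 lower (SEN1, BCAT2), where 22.9% and 20.9% of all tested genes were. BGLU30 and DIN10 were not called. The median log2 fold change was 0.31, against -0.04 over all genes. The call of SEN1 was lost without treated wild type replicate 1 (-0.23, edgeR adjusted p = 0.13, where its alternatives ranged from 1.04e-04 to 0.13) and without either gun1-9 library, BCAT2 lost its call without gun1-9 replicate 1 (-0.62, adjusted p = 0.0514), DIN4 without gun1-9 replicate 2, and TPS10 without any 1 library but treated wild type replicate 2, whose removal brought DIN10 in (0.44, adjusted p = 0.0135). Scaled by library sizes alone, DIN4 (0.07) and TPS8 (0.17) were not called and TPS10 was at -0.11. DIN4 was also lost with upper quartile factors (0.28) and with only gun1-9 and treated wild type in the fit (0.47). TPS10 lost its call under every other scaling, with no filter or a stricter one, and with only those groups in the fit. Summed root markers were 164.5 and 143.4 CPM in gun1-9 and 75.2 to 99.1 CPM elsewhere, but most of that sum is SCR (117.6 against 40.9 CPM in treated wild type). SCR was the 1 of 8 called higher, none was called lower, and the median over the 8 was -0.27. All 4 vascular markers were called lower in gun1-9, as was 1 of 4 guard cell markers, KAT1 (9.39 against 14.9 CPM). The part of these markers in the gun1-9 values was not tested.

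The overexpression lines were compared with wild type on norflurazon in the same way. In MORF2OX all 9 genes were higher, where 19.3% of all tested genes were, with a median log2 fold change of 1.04 against 0.02 over all genes. In MORF2OX(w) 8 of 9 were higher, all but TPS10, where 8.36% of all tested genes were, with a median of 0.85 against 0.01. By size the order of the first members was the same in both, ASN1 first and BCAT2 next. The summed level of the 9 genes was 9982 and 11400 CPM in MORF2OX and 8917 and 9806 CPM in MORF2OX(w), against 4612 and 5398 CPM in wild type and 5798 and 6388 CPM in gun1-9 on norflurazon. Summed root markers of the overexpressors, at 85.3 to 88.5 CPM, compare with 75.2 and 87.3 CPM in treated wild type, and 1 of 8, WER, was called lower in each line. Of the 4 vascular markers 2 were lower in each line, and of the 4 guard cell markers 1 was higher in MORF2OX(w) and 0 in MORF2OX. Of all tested genes 14.1% were lower in MORF2OX and 4.53% in MORF2OX(w). The part of these markers in the result was not tested. TPS10 in MORF2OX was lost without either untreated library, either gun1-9 library or MORF2OX replicate 2, with only these groups, with no filter, with upper quartile factors (0.22) and with library sizes alone (0.04). The calls of DIN10 and TPS8 in MORF2OX(w) were lost without either MORF2OX(w) library, while TPS10 was called there without treated wild type replicate 2. With only MORF2OX(w) and treated wild type in the fit, ASN1, BGLU30 and BCAT2 remained called and the other members did not pass.

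**Figure D2:**
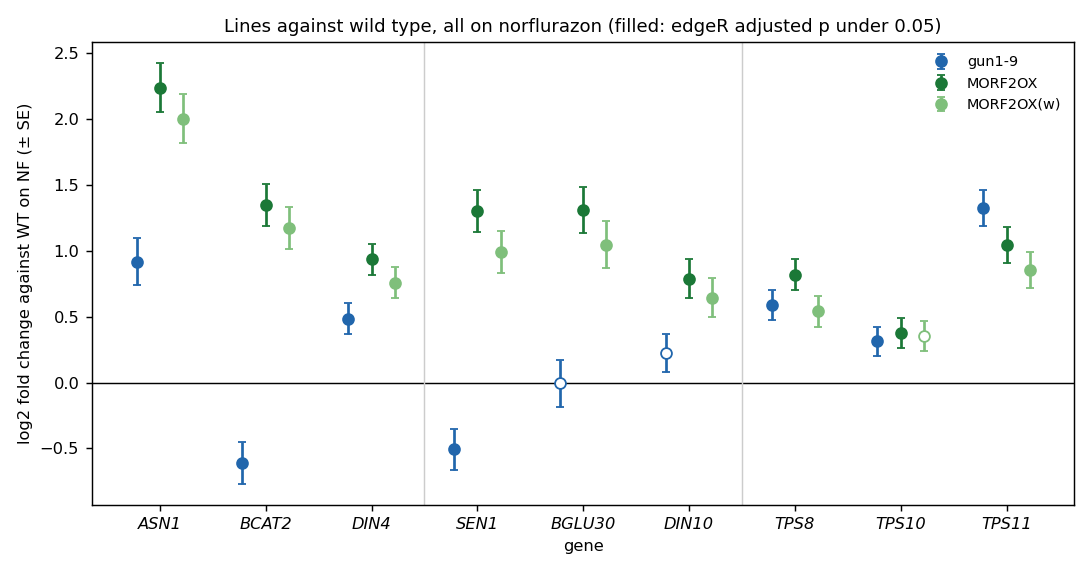
Log2 fold change of each gene against wild type on norflurazon in gun1-9, MORF2OX and MORF2OX(w), n = 2 a group. Bars are ± SE from the fit of all 10 libraries, which share 1 estimate of the spread. Filled points passed an edgeR adjusted p under 0.05 and grey lines part the amino acid, dark-inducible and TPS genes. ASN1 is the highest point in both overexpression lines, at 2.24 and 2.00, TPS11 is the highest in gun1-9, at 1.33, and SEN1 and BCAT2 fall below 0 in gun1-9 alone.

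Direct comparison of the overexpression lines called 0 of the 9 genes with edgeR, where 1.81% of all tested genes were called. DESeq2 also called 0 of 9. Unadjusted, 1 of the 9 passed 0.05 in edgeR, TPS8, with a log2 fold change of 0.28 (adjusted p = 0.338). The fitted differences were all above 0, from 0.02 for TPS10, which turned below 0 under other scalings, to 0.31. The 0.31 was that of SEN1 (SE 0.16, edgeR adjusted p = 0.445), whose libraries did not overlap between the lines. The SEs of 0.11 to 0.18 come from the spread shared by all 5 groups, and differences of this size were not resolved in this fit. MORF2 itself was higher in MORF2OX than in MORF2OX(w) by 0.69 (adjusted p = 0.0187).

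Against gun1-9, the overexpressors stood highest for BCAT2 and SEN1 and did not exceed it for the TPS genes by any called difference. In MORF2OX 6 of 9 were higher than in gun1-9 and none was called lower, where 17.1% and 18.1% of all tested genes were. BCAT2 differed by 1.95 (SE 0.16, edgeR adjusted p = 5.23e-06), SEN1 by 1.81 (SE 0.16, adjusted p = 8.41e-06), ASN1 by 1.32 (adjusted p = 0.00017) and BGLU30 by 1.31 (adjusted p = 0.000164). DIN10 and DIN4 followed at 0.57 and 0.45 (edgeR adjusted p = 0.0108 and 0.0112), each lost without gun1-9 replicate 1 or MORF2OX replicate 2. The TPS genes were not called, with 0.23 for TPS8, 0.07 for TPS10 and -0.29 for TPS11, which was called lower with only these groups (adjusted p = 0.0378) and without either treated wild type library (adjusted p = 0.0295), where its alternatives ranged from 0.0295 to 0.484. In MORF2OX(w) 5 of 9 were higher than in gun1-9 and TPS11 was lower (-0.47, SE 0.14, edgeR adjusted p = 0.017), where 16.7% and 19% of all tested genes were. DIN10 was among those 5 (0.42, adjusted p = 0.0422) but was lost without any 1 library of gun1-9, MORF2OX or MORF2OX(w), and TPS11 was lost without either gun1-9 library or MORF2OX(w) replicate 1 and with library sizes alone (-0.25). DIN4 (0.27), TPS8 and TPS10 were not called, but DIN4 was called higher with upper quartile factors (0.37), library sizes alone (0.49), only these groups, and without either treated wild type library. Of the markers, 2 of 4 for guard cells (FAMA and KAT1) and 1 of 4 for vascular tissue (APL in MORF2OX, XCP2 in MORF2OX(w)) were higher than in gun1-9 in each overexpressor. Root markers were lower in 1 of 8 cases in MORF2OX (SCR) and 2 of 8 in MORF2OX(w) (SCR and WER). Their part in these differences was not tested.

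Measured from untreated wild type, which combines the herbicide with the line, all 9 genes were higher in gun1-9, in MORF2OX and in MORF2OX(w), where 29.3%, 31.2% and 30.8% of all tested genes were. BCAT2 was 18.1-fold higher in gun1-9, 70-fold in MORF2OX and 61.9-fold in MORF2OX(w). ASN1 was 16.1-, 40.3- and 34.2-fold higher and SEN1 7.77-, 27.2- and 21.9-fold higher in the same order. TPS10 differed little between lines, at 3.14-, 3.29- and 3.23-fold. These comparisons share the untreated libraries, and each line's comparison with treated wild type shares those of that group.

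Per kilobase of exon the order of the genes changed with the group. Untreated, DIN10 had the highest level at 104 CPM per kb, followed by SEN1 at 41.6, while TPS8 at 29.1 ± 1.77, DIN4 at 26.8 ± 0.354 and TPS11 at 26.3 ± 0.108 lay close together above ASN1 at 19.4. TPS10 at 11.8, BCAT2 at 4.65 and BGLU30 at 3.14 came last. In wild type on norflurazon DIN10 led at 978 CPM per kb, ahead of SEN1 at 459, ASN1 at 166 ± 26.8 and BCAT2 at 129. In gun1-9 SEN1 (323) and ASN1 (313 ± 60.8) had overlapping levels per kb, and TPS11 at 137 and DIN4 at 126 stood above BCAT2 at 84.5. In MORF2OX the levels per kb ran from DIN10 at 1689, SEN1 at 1131 and ASN1 at 783 down to BGLU30 at 53.3 and TPS10 at 38.9, with TPS11 at 112 ± 12.2 and TPS8 at 111 ± 8.30 not apart.

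Other genes of the same pathways were counted to set the 9 in context. Beside the shares called higher given above, 34.5% of all tested genes were lower on norflurazon, 20.9% in gun1-9, 14.1% in MORF2OX and 4.53% in MORF2OX(w). Of 14 other dark- or starvation-inducible genes, 13 rose and 1 fell on norflurazon, with a median log2 fold change of 2.22. Among them BGAL4, a beta-galactosidase, went from 44.5 to 577 CPM, although a gene on the opposite strand covers 23.8% of its exons, and KMD2, an F-box protein of cytokinin signalling, from 7.77 to 73.9 CPM. In gun1-9 2 of the 14 were higher and 6 lower than in wild type on norflurazon. SIP2, an alkaline alpha-galactosidase of the raffinose family, was up from 989 to 2084 CPM, and OZF1 was down from 31.8 to 16.3 CPM. In MORF2OX 9 were higher and 0 lower and in MORF2OX(w) 8 and 0. STP1, a hexose transporter, was at 547 CPM in treated wild type, 1076 in MORF2OX and 989 in MORF2OX(w).

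Of 16 other genes of branched-chain amino acid breakdown, 13 rose on norflurazon, as BCAT2 and DIN4 did, and 2 fell (median 1.32). DIN3, the E2 subunit of the complex that holds DIN4, went from 29.1 to 185 CPM, and MCCA, the alpha subunit of methylcrotonyl-CoA carboxylase, from 46.1 to 400.5 CPM. In gun1-9 5 of the 16 were higher and 4 lower, where 22.9% and 20.9% of all tested genes were. Among them HML1, hydroxymethylglutaryl-CoA lyase, was higher at 114 against 46.2 CPM, and ETFALPHA was lower at 10.9 against 17.5 CPM. In MORF2OX 10 were higher and 2 lower, and in MORF2OX(w) 9 and 1. The shares of all tested genes were 19.3% and 14.1% in MORF2OX, with 8.36% and 4.53% in MORF2OX(w). AT1G21400, an E1 alpha subunit gene of the same dehydrogenase, was at 198.8 CPM in treated wild type, 441.6 in MORF2OX and 371 in MORF2OX(w).

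The list of other asparagine, glutamate, proline and lysine genes split. On norflurazon 5 of 10 rose and 3 fell, where 30.5% and 34.5% of all tested genes did. ProDH1, proline dehydrogenase, went from 137.5 to 2596 CPM and THA1, threonine aldolase, from 9.84 to 194 CPM. ASN2, the second asparagine synthetase, went the other way from ASN1, from 675.9 to 55.4 CPM (log2 fold change -3.61, edgeR adjusted p = 1.66e-08), and this gene was singled out after its values were seen. In gun1-9 ASN2 was at 229.6 CPM, 2.05 above treated wild type on the log2 scale, while ProDH1 was at 1209 CPM, or -1.10. There 2 of the 10 were higher and 4 lower. In MORF2OX 3 were higher and 1 lower and in MORF2OX(w) 2 and 0, among them THA1 at 590 and 488 CPM and LKR/SDH, the first enzyme of lysine breakdown, at 304 and 264 CPM against 149 in treated wild type.

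Other trehalose genes mostly fell on norflurazon, unlike TPS8, TPS10 and TPS11. Of 12 tested, 1 rose on norflurazon and 8 fell (median -1.05). TPS9, another class II gene, rose from 96.0 to 186 CPM, while TPS1, which makes trehalose 6-phosphate, went from 102.9 to 32.0 CPM and TPPE, a phosphatase, from 20.95 to 3.72 CPM. TPS1 and TPS9 were picked out here after their values were seen. In gun1-9 4 of the 12 were higher and 3 lower, in MORF2OX 5 and 3, and in MORF2OX(w) 4 and 3. The shares of all tested genes were 22.9% and 20.9%, 19.3% and 14.1%, and 8.36% and 4.53%, in the same order. TRE1, trehalase, which splits trehalose to glucose, was at 6.67 CPM in treated wild type, 10.7 in gun1-9, 15.3 in MORF2OX and 13.7 in MORF2OX(w).

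Of the 6 SnRK1 subunits 2 rose and 2 fell on norflurazon, where 30.5% and 34.5% of all tested genes did. Set against treated wild type, the shares higher and lower were 22.9% and 20.9% for gun1-9. For MORF2OX these shares were 19.3% and 14.1%, with 8.36% and 4.53% for MORF2OX(w). None of the list counts that follow was tested against these shares. AKINBETA1 rose from 50.2 to 140 CPM and was at 244.5 CPM in MORF2OX and 221 in MORF2OX(w). The SNF4 subunit went from 62.0 to 33.0 CPM and was at 60.6 in gun1-9. Against treated wild type AKINBETA1 was the 1 of 6 called in each overexpressor, and SNF4 the 1 of 6 called in gun1-9. Among the C group bZIP factors, partners in starvation signalling, 3 of 4 rose on norflurazon, with bZIP9 going from 41.7 to 137 CPM. In gun1-9 bZIP9 was at 81.7 CPM, called lower, and in MORF2OX 3 of the 4 were higher, while 0 of the 4 were called in MORF2OX(w). Autophagy genes, which recycle cell contents, rose in 10 of 16 cases and fell in 1 on norflurazon (median 0.37), ATG8B from 14.1 to 63.6 CPM. In gun1-9 2 autophagy genes were higher and 1 lower, while 4 were higher in MORF2OX and 1 in MORF2OX(w), with 0 lower in either. Senescence and chlorophyll breakdown genes gave 4 higher and 3 lower of 11 on norflurazon. Against treated wild type 6 of them were higher and 1 lower in gun1-9, while 5 were higher in MORF2OX and 2 in MORF2OX(w), with 0 lower in either. NAP, a NAC factor of leaf senescence, was at 4.91 CPM in treated wild type, 27.2 in MORF2OX and 19.8 in MORF2OX(w). NYC1, a chlorophyll b reductase, was at 284 CPM in gun1-9 against 92.4 in treated wild type. ORE1, the 1 called lower in gun1-9, was at 6.62 CPM there against 16.9. Of 7 sugar-inducible genes 2 rose and 4 fell on norflurazon. GBSS1, a starch synthase, went from 308.6 to 1.54 CPM and was at 12.7 in MORF2OX. Against treated wild type 2 of the 7 were higher and 1 lower in gun1-9, 1 higher and 2 lower in MORF2OX, and 1 higher and 1 lower in MORF2OX(w).

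**Figure D3:**
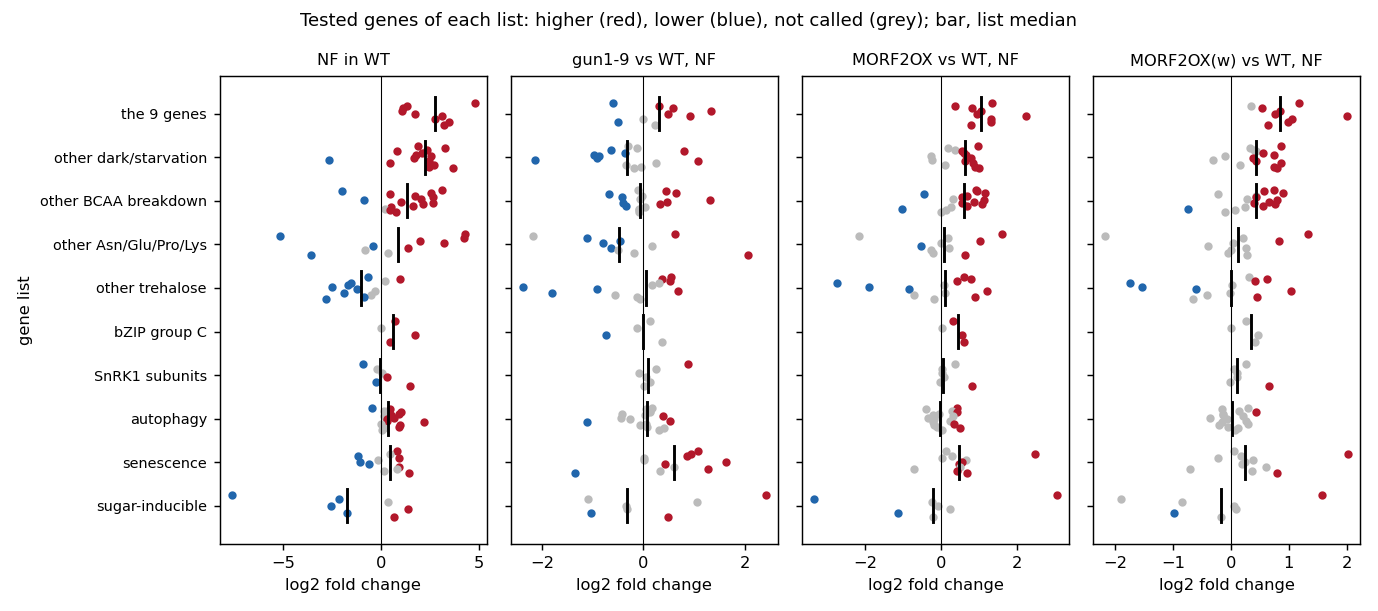
Log2 fold change of every tested gene of the 9 and of 9 other lists, for norflurazon in wild type and for each line against wild type on norflurazon; red points were called higher, blue lower and grey not called (edgeR adjusted p under 0.05), and black bars are list medians. On norflurazon the 9 genes (median 2.77) and the other dark- or starvation-inducible genes (2.22) lie to the right while the other trehalose genes (-1.05) and sugar-inducible genes (-1.72) lie to the left.

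For each gene the most similar gene over the 10 libraries was sought among 12074 others by Pearson's r of log2 CPM, which describes 5 groups of 2 libraries and not independent points. DIN4 was most like AT1G21400, the E1 alpha subunit gene of its own complex (r = 0.998). ASN1 was most like J11 (AT4G36040), a DnaJ-domain protein (r = 0.996), which held 65.0 CPM untreated, 211 in treated wild type, 269 in gun1-9, 421 in MORF2OX and 386 in MORF2OX(w). BGLU30 was most like ACX4 (AT3G51840), a peroxisomal acyl-CoA oxidase (r = 0.997), TPS8 like DMR6 (AT5G24530, r = 0.996), and TPS11 like SCL3 (AT1G50420, r = 0.997), a GRAS-family regulator. The partners of SEN1, BCAT2, DIN10 and TPS10 were AT1G02610, AT1G76590, AT5G59960 and AT5G06370, with r of 0.997, 0.998, 0.999 and 0.998.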

How the data were processed

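The authors deposited a table of unnormalized read counts for each library. Alignment to TAIR10 and counting used TopHat2 2.1.1, Bowtie2 2.3.1 and HTSeq 0.6.1, and edgeR is also listed, per the submitters' processing notes. How these tools were set, strand included, is not given in the sources used here.

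Here CPM values were computed with TMM factors (0.722 to 1.27). Genes passing filterByExpr (20628) were tested in R 4.3.3 with edgeR 4.0.16 (glmQLFit, glmQLFTest), with 5 group means, all 10 libraries, no block and Benjamini-Hochberg adjustment. This assumes the same spread in all groups. The SE is the log2 fold change divided by the square root of F. The fit was tested on counts simulated with the same spread (dispersion 0.01) in every gene and group. The simulation thus did not cover the unequal replicates of treated wild type. Alternatives were other scalings, no filter, a stricter one (5 CPM), DESeq2 1.42.0, a replicate block, only the groups compared, and leaving out each library. Members, lists and tests were chosen with earlier results of these data known. Genes of the other lists were named by a rule: in each comparison against a wild type group, at most 2 called genes a list, those with the largest change among genes whose libraries did not overlap and which reached a mean of 10 CPM. Upstream windows and gene models come from RefSeq TAIR10.1, whose nuclear chromosomes match TAIR10.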

Additional observations from a re-analysis of the deposited data

Results flagged for a closer look

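SEN1 and BCAT2 differed in direction between the lines. Each was called lower in gun1-9 and higher in both overexpression lines when set against wild type on norflurazon, and the direct test between lines was also called. SEN1 was higher than in gun1-9 by 1.81 in MORF2OX and 1.5 in MORF2OX(w) on the log2 scale (edgeR adjusted p = 8.41e-06 and 1.94e-05). BCAT2 was higher by 1.95 in MORF2OX and 1.78 in MORF2OX(w) (edgeR adjusted p = 5.23e-06 and 6.02e-06). In each case both libraries of the overexpressor lay above both of gun1-9, and these calls between lines were made in every alternative run. The lower calls in gun1-9 were less firm. That of SEN1 was lost without treated wild type replicate 1 (-0.23, edgeR adjusted p = 0.13), without either gun1-9 library (adjusted p = 0.0719 and 0.079) and with only these groups (adjusted p = 0.0772), and its alternatives ranged from 1.04e-04 to 0.13. That of BCAT2 was lost without gun1-9 replicate 1 (adjusted p = 0.0514, within a range of 0.000239 to 0.0514).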

How the results depend on the processing

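The 9 calls on norflurazon in wild type, and those of each line against untreated wild type, were made under every alternative run, including each left-out library. Called members ranged from 4 to 8 in gun1-9 (7 in the fit as reported), 8 to 9 in MORF2OX and 6 to 9 in MORF2OX(w) when 1 library was left out, from 4 to 7 in each overexpressor against gun1-9, and stayed at 0 between the overexpressors. They were 4 in gun1-9 with library sizes alone (2 higher and 2 lower) and 4 with only the groups compared, which left 3 in MORF2OX(w). Called genes over the whole table ranged, without 1 library, from 11473 to 14461 for norflurazon, 6062 to 11169 in gun1-9, 3320 to 10050 in MORF2OX and 526 to 7768 in MORF2OX(w). They ranged from 0 to 1548 between the overexpressors, 4145 to 9875 and 4571 to 9873 for MORF2OX and MORF2OX(w) against gun1-9, and 10304 to 14327, 11533 to 15294 and 11500 to 15216 for gun1-9, MORF2OX and MORF2OX(w) against untreated wild type. With only the groups compared they were 2791 in MORF2OX (6886 as reported), 335 in MORF2OX(w) (2659) and 1286 between overexpressors (374), where DESeq2 gave 635 and no filter 870. Fewer libraries in a fit leave fewer residual degrees of freedom, and the counts moved both up and down. The highest count between the overexpressors came without treated wild type replicate 1. That of MORF2OX(w) against treated wild type came without treated wild type replicate 2. Treated wild type had the most unequal replicates, and all groups share 1 estimate of the spread. The cause of these shifts was not tested.

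Scaling by library sizes alone shifted the median log2 fold change of all genes by 0.734 on norflurazon, -0.417 in gun1-9, -0.34 in MORF2OX, -0.195 in MORF2OX(w) and -0.145 between overexpressors, and the share of calls that were higher went from 47% to 78.5%, 52.3% to 20.2%, 57.9% to 18%, 64.8% to 22.9% and 82.6% to 52.1%. Upper quartile factors gave 56.9%, 33.1%, 35.7% and 40.6% for the first 4 comparisons and 58.2% in place of 46.7% for MORF2OX(w) against gun1-9. The sign turned, among called values, only for TPS10 in gun1-9 (-0.107, library sizes alone). Among values not called it turned for DIN10 in gun1-9 (-0.196) and between overexpressors (-6e-04) and TPS8 in MORF2OX(w) against gun1-9 (0.174) with library sizes alone, the last also with upper quartile factors (0.051). TPS10 between overexpressors turned to -0.03 (upper quartile), -0.12 (library sizes alone) and -0.002 (only these groups), and without 1 library it ran from -0.042 to 0.091. Without 1 library BGLU30 in gun1-9 ran from -0.104 to 0.101, BGLU30 and BCAT2 between overexpressors from -0.045 to 0.513 and from -0.015 to 0.346, and TPS10 against gun1-9 from -0.00034 to 0.129 in MORF2OX and from -0.025 to 0.107 in MORF2OX(w).

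With the replicate block the called members were 9 on norflurazon, 7 in gun1-9, 9 in MORF2OX and 9 in MORF2OX(w), TPS10 being added there, and called genes 13462, 9046, 6920 and 2753. Deviations of same-numbered libraries had correlations of -0.102 to 0.0892, so no pairing by number was visible in them. Whether same-numbered libraries shared growth or handling was not tested.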

Other observations

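The 5 bZIP genes of the S1 group, bZIP1, bZIP2, bZIP11, bZIP44 and bZIP53, which pair with the C group in starvation signalling, were listed at 0 counts in all 10 libraries, so no level was read for them.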
